A study of Mus musculus with 6 samples.

Results

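The 10 genes described here encode enzymes and a chaperone that modify, fold and crosslink collagen: the prolyl 4-hydroxylase alpha subunits P4ha1, P4ha2 and P4ha3, the lysyl hydroxylases Plod1, Plod2 and Plod3, the collagen chaperone Serpinh1, and the lysyl oxidases Lox, Loxl1 and Loxl2. They were taken by symbol from a deposited exon count table of 24940 genes, all 10 were found, and all 10 passed the filter on low counts with 12687 genes tested. The libraries came from primary hepatic stellate cells, liver pericytes that store vitamin A and make scar matrix once activated, isolated from female mice of the strain C57BL/6JBomTac. Of the 6 libraries, 3 came from cells that received 10 µM obeticholic acid (OCA), a synthetic agonist of the bile acid receptor FXR, labelled stimulated, and 3 from cells that received the same volume of the vehicle DMSO, labelled control. Treatment began 2 days after isolation and lasted 6 hours in both groups, so both groups hold plated cells. The labels give no genotype or age and do not tell whether the 3 libraries of each treatment stem from different mice or dishes. The p-values therefore reflect no more than the spread of these 6 libraries, and that spread may be technical.

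Collagen chains are modified before they fold. Prolyl 4-hydroxylases, tetramers of alpha subunits with the protein disulfide isomerase P4hb, hydroxylate prolines and so stabilise the triple helix, and lysyl hydroxylases hydroxylate lysines that later carry sugars or enter crosslinks. The chaperone HSP47, encoded by Serpinh1, binds the folded triple helix in the endoplasmic reticulum, and the copper-dependent lysyl oxidases act outside the cell, where they oxidise lysines and hydroxylysines of collagen and elastin so that the fibres crosslink. In activated stellate cells these enzymes take part in the build-up of fibrotic liver matrix.

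Within 6 hours of OCA, 1 of the 10 transcripts changed: Plod2, whose product hydroxylates the lysines of collagen telopeptides, fell by 21.4%. None rose, and no call was made for the remaining 9. Of all 12687 genes tested, 5.20% were called, 3.03% lower and 2.18% higher, at an adjusted p under 0.05 (quasi-likelihood test of edgeR, Benjamini-Hochberg adjustment over all genes tested). The median log2 fold change (OCA over DMSO) of the 10 genes was -0.15, with 7 below 0 and 3 above, against a median of 0.00 over all genes tested, of which 6316 lay below 0 and 6371 above. An unadjusted p under 0.05 was reached by 5 of the 10 genes, all lower under OCA (Plod1, Plod2, Plod3, Lox and Loxl2), where 19.0% of all genes reached it, 10.7% lower and 8.26% higher. The OCA and DMSO libraries did not overlap for 2 of the 10, Plod2 and Plod3, both lower, against 22.9% of all genes, 11.3% with all OCA libraries lower and 11.6% with all OCA libraries higher.

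Plod2 (NM_001142916, mm10 chromosome 9, 92542223 to 92608427, plus strand) is the gene the result turns on, and its transcripts come in a pair of forms. A short exon inside the coding sequence is present in the long form, which is the form linked to hydroxylation of telopeptide lysines, and is skipped in the short form. The exon is 63 bases long, number 14 of the 20 exons of the long transcript in GENCODE M21, and lies on the plus strand at chr9:92601985-92602047 of the build GRCm38 (mm10). It is shown because the deposited count of Plod2 covers a row of 3689 bases, of which this exon makes up 1.71%, so the count adds up the forms and does not tell them apart. In the sequences, 5′ to 3′ on the coding strand, capitals mark the exon and lower case the 20 bases on each side of it.
Plod2 long form: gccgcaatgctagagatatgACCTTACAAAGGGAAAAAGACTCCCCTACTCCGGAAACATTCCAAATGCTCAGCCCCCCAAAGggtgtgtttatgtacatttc
Plod2 short form: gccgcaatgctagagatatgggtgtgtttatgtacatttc

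Levels are in CPM (counts scaled to a common library size), after scaling each library with edgeR's TMM factors. Plod2 stood at 152, 158 and 154 CPM in DMSO A, B and C, and at 122, 127 and 116 CPM in OCA A, B and C. Every OCA library lay below every DMSO library, and the gap between the groups was wider than the spread within either. The deposited counts behind these levels ran from 1479.5 to 2524.5. The mean was 155 ± 3.12 CPM (SD, n = 3) in DMSO and 122 ± 5.40 CPM (SD, n = 3) in OCA, a log2 fold change of -0.35 with a standard error (SE) of 0.06, a 95% interval of -0.48 to -0.21 and an adjusted p of 0.00261. In percent, the interval of the change ran from -28.3% to -13.7%. Plod2 had the 141st smallest p of all genes tested (rank 141 of 12687). The call was made in all 18 alternatives tried, the 6 fits that left out 1 library included, with log2 fold changes from -0.39 to -0.32 and adjusted p-values from 1.85e-05 to 0.0249.

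The other lysyl hydroxylases had smaller differences of the same sign. Plod3, which besides hydroxylating lysines transfers the sugars galactose and glucose to hydroxylysine, had 145, 148 and 147 CPM in DMSO A, B and C, against 134, 138 and 127 CPM in OCA A, B and C. Its groups did not overlap, but the difference did not pass the test (log2 fold change -0.14, SE 0.06, 95% interval -0.28 to -0.01, adjusted p = 0.222). The exons of Plod3 overlap those of Znhit1 on the opposite strand by 529 bases. Whether the counting used strand is not stated, so reads of Znhit1 over those bases may be among the counts of Plod3, and the same holds for 305 bases that Plod2 shares with Gm38391. Znhit1 itself had a log2 fold change of 0.10 (adjusted p = 0.474). Plod1, which hydroxylates lysines within the triple helix, had 171, 181 and 158 CPM in DMSO A, B and C and 145, 169 and 141 CPM in OCA A, B and C. OCA B lay inside the range of the DMSO libraries, and the difference did not pass the test (log2 fold change -0.16, SE 0.08, adjusted p = 0.247). Without OCA B, Plod1 was called lower (log2 fold change -0.25, adjusted p = 0.0387). It was not called when any other single library was left out (adjusted p from 0.219 to 0.572).

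**Figure D1:**
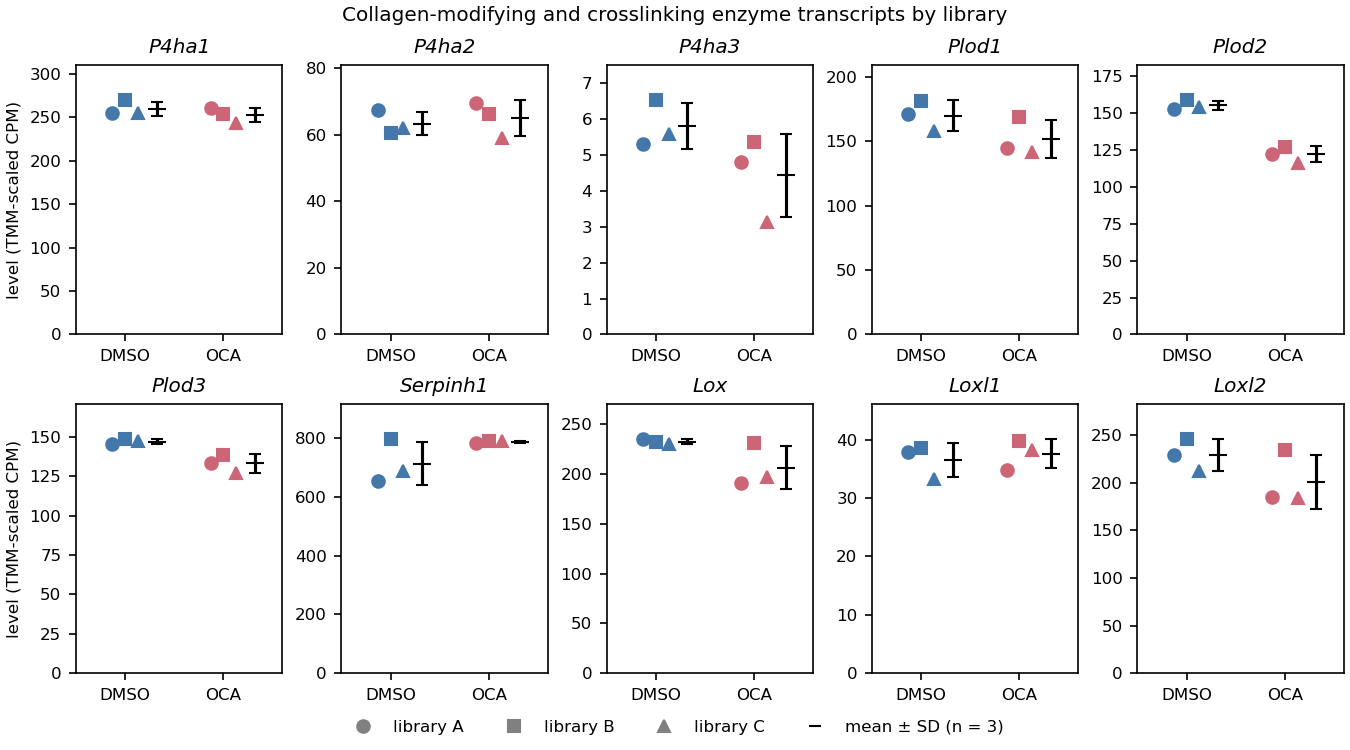
Level of each of the 10 transcripts in TMM-scaled CPM (vertical axes, from 0, a separate scale for each gene) in the DMSO and OCA libraries, with circles, squares and triangles for libraries A, B and C and bars for the mean ± SD of n = 3. The OCA points lie below all DMSO points for Plod2 and Plod3, and OCA B lies close to the DMSO points for Plod1, Lox and Loxl2.

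The make-up of the lysyl hydroxylase transcripts was read per length, as each gene's share of the summed CPM per kilobase of the 3 genes. The Plod2 share was 29.8%, 29.7% and 30.8% in DMSO A, B and C, and 27.8%, 26.7% and 27.6% in OCA A, B and C. All 3 OCA shares lay below all 3 DMSO shares, with means of 30.1% ± 0.596 and 27.4% ± 0.627 (SD, n = 3), a difference of -2.72 percentage points. The exact two-sided permutation test gave p = 0.1, the smallest value that 3 libraries against 3 can give, so this test cannot pass a threshold of 0.05 at this size. Adjusted over the 9 shares compared in 3 groups of 3 genes, that exact p was 0.45. Plod1 made up 37.6% and Plod3 32.3% of the lysyl hydroxylase transcripts in DMSO (means, n = 3), and 38.8% and 33.8% in OCA, with overlapping libraries for each.

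**Figure D2:**
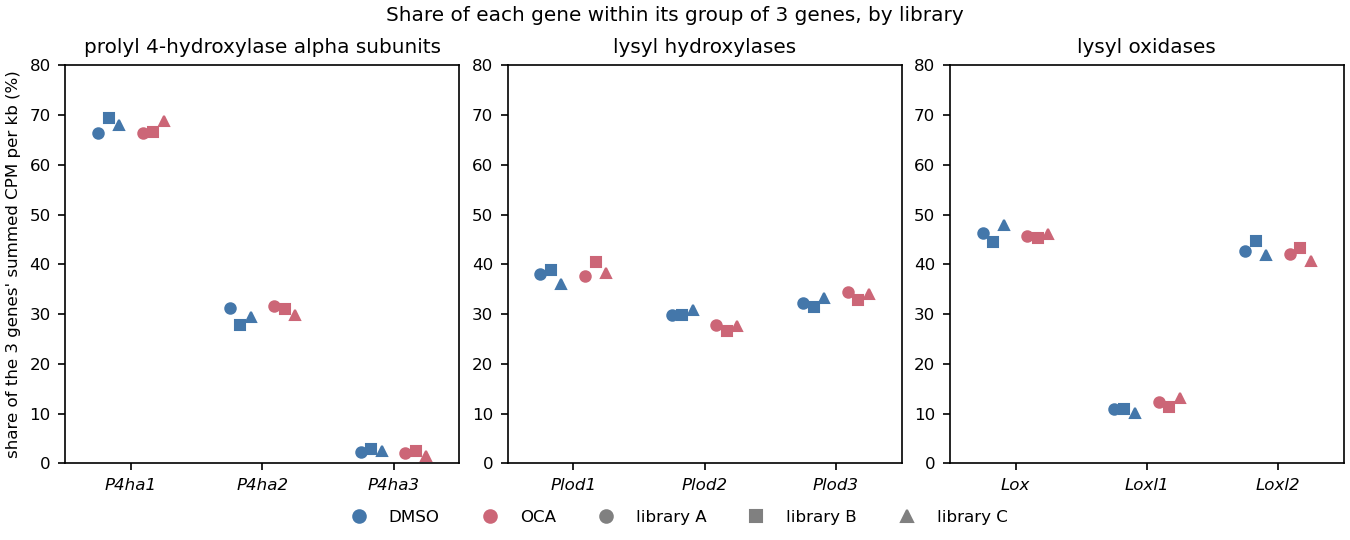
Share of each gene in the summed CPM per kilobase of the 3 genes in its panel, in percent (vertical axis; the lysyl oxidase panel holds Lox, Loxl1 and Loxl2 and leaves out Loxl3 and Loxl4), for each library (DMSO blue, OCA red, symbols for libraries A, B and C). The Plod2 share lies between 26.7% and 27.8% in the OCA libraries and between 29.7% and 30.8% in the DMSO libraries. Lengths are those of the deposited table, which for P4ha1 and Loxl2 are well above those of the matched GENCODE transcripts, so the shares in those 2 panels depend on the length used.

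The prolyl 4-hydroxylase alpha subunits showed no change that passed the test. P4ha1, the main alpha subunit in most cells, had 255, 270 and 255 CPM in DMSO A, B and C and 260, 254 and 244 CPM in OCA A, B and C. The groups overlapped, and the interval of the difference was narrow (log2 fold change -0.04, SE 0.06, 95% interval -0.17 to 0.10, adjusted p = 0.789), which in percent is a change between -11.4% and 6.91%. P4ha2, a second alpha subunit, had 67.4, 60.6 and 62.1 CPM in DMSO A, B and C and 69.7, 66.2 and 59.2 CPM in OCA A, B and C. Its groups overlapped, and its interval ran from -8.70% to 15.2% (log2 fold change 0.04, SE 0.08, adjusted p = 0.842). P4ha3, the third alpha subunit, was scarce, with deposited counts of 88, 78.5 and 86 in DMSO A, B and C and 64, 70.5 and 40 in OCA A, B and C. That is 5.81 ± 0.634 CPM in DMSO and 4.44 ± 1.16 CPM in OCA (SD, n = 3). At this depth its log2 fold change of -0.38 had an SE of 0.26 and a 95% interval from -0.93 to 0.16 (adjusted p = 0.453), so a fall as large as that of Plod2 could not be told from no change. P4hb, the shared beta subunit of these enzymes, named here outside the naming rule for its role, had 429, 523 and 451 CPM in DMSO A, B and C and 442, 459 and 443 CPM in OCA A, B and C (log2 fold change -0.06, SE 0.08, adjusted p = 0.721).

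Serpinh1 was the most abundant of the 10 transcripts and had the largest positive log2 fold change among them, without passing the test. It stood at 782, 788 and 789 CPM in OCA A, B and C, and at 653, 795 and 687 CPM in DMSO A, B and C. The OCA libraries were nearly equal, and they lay above DMSO A and DMSO C but below DMSO B. The log2 fold change was 0.14 (SE 0.08, 95% interval -0.03 to 0.32, adjusted p = 0.357). Without DMSO B it was 0.23, with an adjusted p of 0.03, so this library decides that call. Leaving out any other single library gave no call (adjusted p from 0.432 to 0.753). Serpinh1 is also a heat shock gene, and of 10 other heat shock genes none was called in either direction. Of these, 7 had log2 fold changes above 0 and 3 below, with a median of 0.05. The most abundant had values close to no change: Hsp90aa1, a cytosolic chaperone, differed by 0.04 on the log2 scale (SE 0.08), and Hspa8, the constitutive HSP70, by 0.05 (SE 0.08). Named outside the naming rule, the scarcer Hspa1a had 0.32 (SE 0.20, adjusted p = 0.402) and Hspa1b -0.11 (SE 0.16, adjusted p = 0.766).

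Lox and Loxl2 shared a pattern across the libraries that Loxl1 did not have. Lox, which oxidises lysines of fibrillar collagen and elastin (chromosome 18, 52516060 to 52529823, minus strand), had 235, 232 and 230 CPM in DMSO A, B and C, and 191, 231 and 197 CPM in OCA A, B and C. Loxl2, an oxidase known for acting on type IV collagen of basement membranes (chromosome 14, 69609476 to 69695834, plus strand), had 229, 246 and 212 CPM in DMSO A, B and C, and 185, 234 and 184 CPM in OCA A, B and C. For each gene OCA A and OCA C lay below all DMSO libraries and OCA B lay among them. With all 6 libraries neither passed the test: the log2 fold change was -0.17 for Lox (SE 0.07, 95% interval -0.32 to -0.02, adjusted p = 0.206) and -0.19 for Loxl2 (SE 0.09, 95% interval -0.37 to -0.01, adjusted p = 0.239). Without OCA B both were called lower, Lox with a log2 fold change of -0.26 (adjusted p = 0.0258) and Loxl2 with -0.31 (adjusted p = 0.00881). Neither was called when any other single library was left out (adjusted p from 0.239 to 0.529 for Lox and from 0.231 to 0.580 for Loxl2). Over all genes, the fit without OCA B called 758 of 12845 lower, against 384 of 12687 with all 6 libraries. The exons of Loxl2 overlap an antisense transcript, Gm27177, by 301 bases in the matched GENCODE transcript, and reads from that strand may be among its counts. Loxl1, which is known for its part in elastic fibres, had 37.9, 38.6 and 33.2 CPM in DMSO A, B and C and 34.8, 39.7 and 38.2 CPM in OCA A, B and C, with overlapping groups. Its log2 fold change was 0.04 (SE 0.10, adjusted p = 0.856) and its interval ran from -10.5% to 18.2%. Within the sum of Lox, Loxl1 and Loxl2 per length, which leaves out the other lysyl oxidases Loxl3 and Loxl4, its share was 10.7% ± 0.438 in DMSO and 12.3% ± 0.857 in OCA (SD, n = 3), with all OCA libraries above all DMSO libraries and the smallest exact two-sided permutation p that this size allows (p = 0.1, 0.45 adjusted over the 9 shares). The size of this share rests on the length taken for Loxl2, 5164 bases in the deposited table against 3042 in the matched GENCODE transcript.

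**Figure D3:**
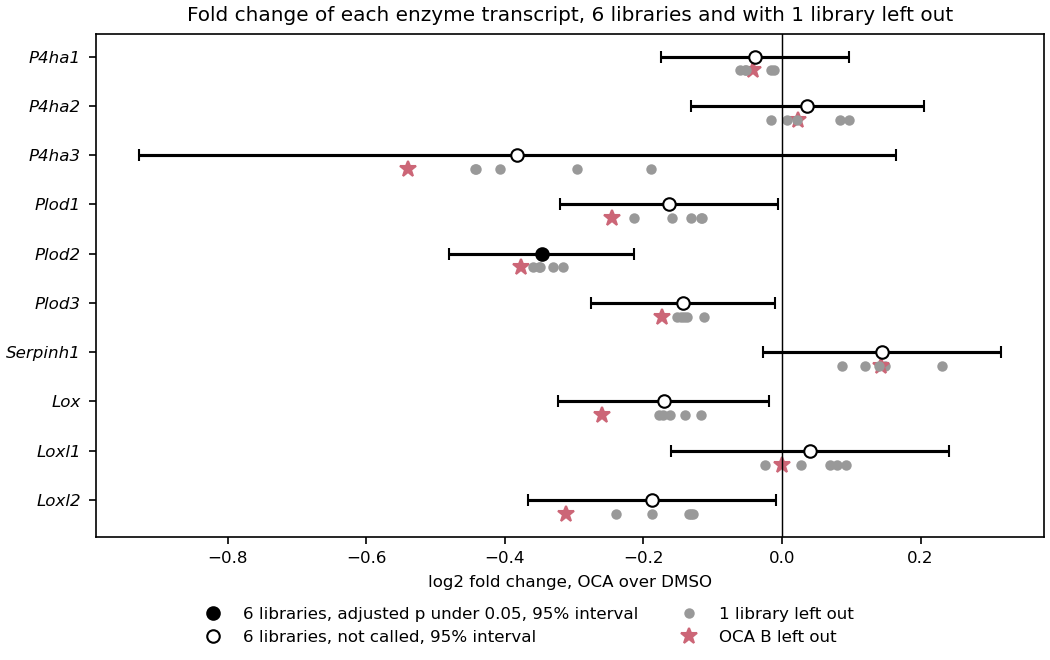
Log2 fold change of each transcript, OCA over DMSO (horizontal axis), with its 95% interval for all 6 libraries (filled where called, open where not), and below it the value of each fit with 1 library left out (grey points, with a red star where OCA B was left out). Plod2 stays between -0.38 and -0.32, and the star is the lowest value for P4ha3, Plod1, Plod2, Plod3, Lox and Loxl2.

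Library B of each group took the high end of these genes more often than of genes at large. Among the OCA libraries, OCA B was highest in 7 of the 10 genes and lowest in 0, where it was highest in 33.2% of all genes tested. DMSO B was highest in 8 of the 10, against 34.2% of all genes. Transcript length moved with the contrast as well: the median log2 fold change was 0.10 in the eighth of tested genes with the shortest transcripts and -0.14 in the eighth with the longest. None of the 10 genes fell in those outer eighths. Plod2 and P4ha1 lay in the sixth eighth (3573 to 4411 bases), where the median log2 fold change was -0.04 and 3.53% of genes were called lower. Lox and Loxl2 lay in the seventh (4411 to 5780 bases), with a median of -0.06 and 3.85% called lower. With a length trend removed in each library, Plod2 was still called, with a log2 fold change of -0.33 and an adjusted p of 0.00129, and the median of the 10 genes was -0.11. In the same fit the log2 fold change was -0.11 for Lox (adjusted p = 0.444) and -0.12 for Loxl2 (adjusted p = 0.479), both nearer to no change than without it. That of Plod1 stayed at -0.16 (adjusted p = 0.266). Beyond this fit and the left-out libraries, the part of the libraries and of length in the values of Plod1, Lox and Loxl2 was not tested.

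Between genes, levels were compared per kilobase of the exonic length in the deposited table. In DMSO, Serpinh1 came first at 297 ± 30.9 CPM per kilobase (SD, n = 3), followed by P4ha1 at 64.5 ± 2.11, Plod1 at 52.6 ± 3.64 and Lox at 47.5 ± 0.518. Plod3 at 45.1 ± 0.463, Loxl2 at 44.3 ± 3.27 and Plod2 at 42.0 ± 0.847 came next, and neighbours in this run of 3 overlapped between libraries. Loxl2 also overlapped Lox, with 47.6 in DMSO B against a range of 47.0 to 48.0 for Lox. P4ha2 at 28.03 ± 1.57, Loxl1 at 10.98 ± 0.881 and P4ha3 at 2.48 ± 0.270 CPM per kilobase closed the order, each below the libraries of the gene before it. Under OCA the level of Plod2 was 33.0 ± 1.46 CPM per kilobase, below every other gene of the 10 except P4ha2, Loxl1 and P4ha3. The place of Loxl2 rests on the length used: the table gives 5164 bases, the matched GENCODE transcript 3042. For P4ha1 the lengths differ too, at 4026 bases in the table and 2918 in the matched GENCODE transcript. With GENCODE lengths, chosen after the data had been seen, the DMSO level is at most 89.0 CPM per kilobase for P4ha1 and 75.2 for Loxl2, which at that value comes next after P4ha1. The counts remain those of the longer deposited rows, so these levels would be lower if the extra bases held reads. That was not tested.

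Other genes of the collagen pathway were read from lists that hold none of the 10. Of 15 tested genes for modification and chaperoning in the endoplasmic reticulum, 2 fell, none rose and 13 did not pass, with a median log2 fold change of -0.06. P3h3, a prolyl 3-hydroxylase family member, had 62.9, 63.0 and 55.1 CPM in DMSO A, B and C and 44.9, 51.5 and 47.3 CPM in OCA A, B and C (log2 fold change -0.33, SE 0.08, adjusted p = 0.0276). Its groups did not overlap, yet leaving out any 1 library other than OCA B or DMSO C ended the call, with adjusted p-values from 0.0961 to 0.131. Fkbp9, a prolyl isomerase of the endoplasmic reticulum, had -0.34 on the log2 scale (SE 0.10, adjusted p = 0.0458), and leaving out any 1 library other than OCA B ended the call (adjusted p from 0.0637 to 0.256), as did robust estimation (0.209). Of 12 tested genes of procollagen export, 1 rose and none fell, with a median of 0.01. That gene, Creb3l1, encodes a membrane-bound transcription factor that is cut at the Golgi and drives collagen secretion genes. It had 229, 244 and 221 CPM in DMSO A, B and C and 314, 286 and 284 CPM in OCA A, B and C, without overlap (log2 fold change 0.35, SE 0.07, adjusted p = 0.00453), and it was called in all 18 alternatives.

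Of 7 tested genes of procollagen processing, 1 fell and none rose, and all 7 had log2 fold changes below 0, with a median of -0.29. The gene called, Adamts2, encodes the N-propeptidase of fibrillar procollagens. It went from 154 ± 7.72 to 112 ± 22.6 CPM (SD, n = 3; log2 fold change -0.45, SE 0.10, adjusted p = 0.00935), and the call ended when OCA A (adjusted p = 0.0758), OCA C (0.0694) or DMSO A (0.0626) was left out and with robust estimation (0.0951). With the length trend removed Adamts2 was still called, with a smaller log2 fold change of -0.33 (adjusted p = 0.0199). Of 10 tested genes for other crosslinking enzymes and helpers of the lysyl oxidases, 2 fell and none rose, with a median of -0.09. Loxl4, another lysyl oxidase, had 160, 152 and 139 CPM in DMSO A, B and C and 124, 136 and 111 CPM in OCA A, B and C (log2 fold change -0.28, SE 0.08, adjusted p = 0.0368). Its groups did not overlap, but leaving out any 1 library other than OCA B or DMSO C ended the call (adjusted p from 0.0927 to 0.205), as did removing the length trend (adjusted p = 0.0797). Fn1, encoding fibronectin, a matrix scaffold that binds lysyl oxidase, had -0.69 on the log2 scale (SE 0.19, adjusted p = 0.0403), at 91.3, 168 and 72.5 CPM in OCA A, B and C against 220, 160 and 157 CPM in DMSO A, B and C. That call ended when any 1 library other than OCA B was left out (adjusted p from 0.0701 to 0.266), in DESeq2 (0.403), with robust estimation (0.427) and with the length trend removed (0.0576).

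Among the substrates, 2 of 9 tested genes fell and none rose, and the median log2 fold change was -0.33. These are long transcripts, with a median length of 6040 bases. Over all genes, the eighth with the longest transcripts (from 5782 bases) had a median of -0.14, with 12.7% called lower. Col1a2, a chain of type I collagen, had 300, 307 and 268 CPM in DMSO A, B and C and 200, 266 and 197 CPM in OCA A, B and C (log2 fold change -0.40, SE 0.09, adjusted p = 0.0173). Here OCA B lay just below the lowest DMSO library, and leaving out any 1 library other than OCA B or DMSO C ended the call (adjusted p from 0.0662 to 0.122), as did robust estimation (0.058). Col5a2, a chain of type V collagen, had 593, 589 and 597 CPM in DMSO A, B and C and 342, 519 and 346 CPM in OCA A, B and C (log2 fold change -0.56, SE 0.11, adjusted p = 0.00617), and the call ended when OCA A was left out (adjusted p = 0.0641), in DESeq2 (0.1) and with robust estimation (0.116). In both genes OCA B was the highest OCA library by a wide margin, which was not so for Plod2, where the OCA libraries ran from 116 to 127 CPM. With the length trend removed both collagen genes were still called, with smaller log2 fold changes: -0.33 for Col1a2 (adjusted p = 0.0279) and -0.46 for Col5a2 (adjusted p = 0.014). Beyond that fit, the part of length in the values of the substrates was not tested. Over the 78 tested genes of these lists and of the hypoxia and heat shock lists, 2 were called higher and 7 lower, where 2.18% of all genes tested were called higher and 3.03% lower.

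**Figure D4:**
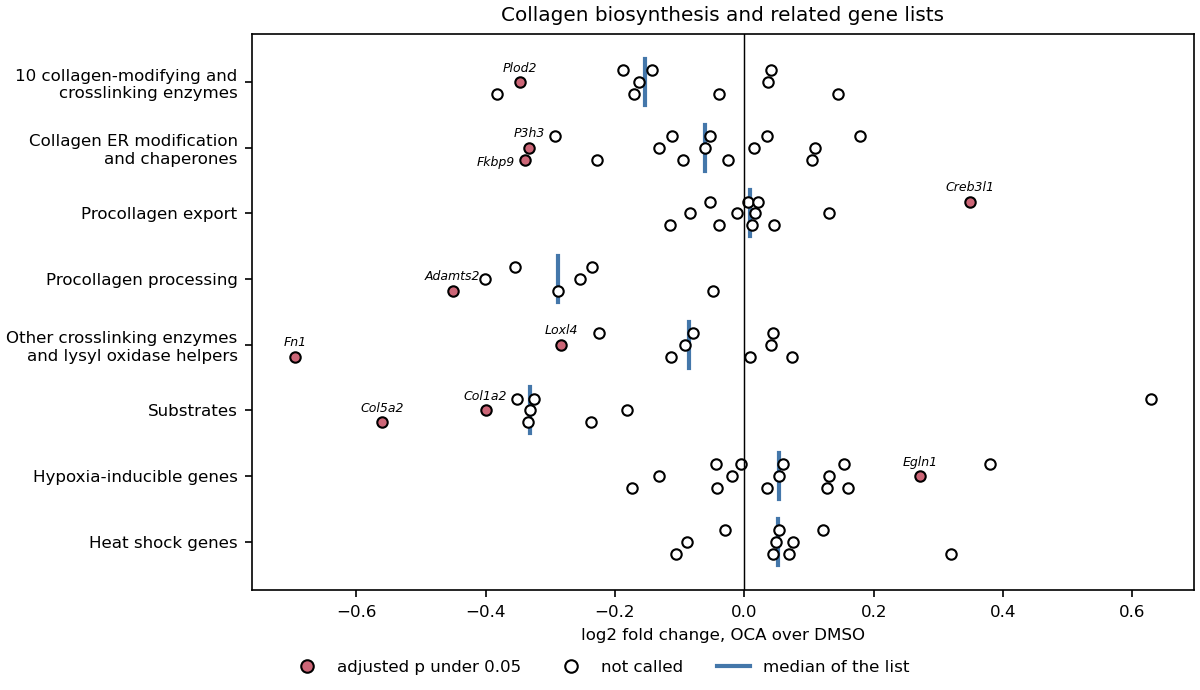
Log2 fold change, OCA over DMSO (horizontal axis), of every tested gene in the 10-gene set and in 7 related lists, with red points for genes with adjusted p under 0.05, open points for the others and a blue bar for each list's median. Plod2 is the single red point of its row, and the substrates row has the lowest median, -0.33.

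P4ha1, P4ha2, Plod2 and Lox are known targets of the hypoxia-inducible factors, so genes of that response were listed too. Of 15 tested hypoxia-inducible genes, 1 rose and none fell, with a median log2 fold change of 0.05. The gene called was Egln1, which encodes the oxygen sensor PHD2, an enzyme that marks hypoxia-inducible factors for breakdown. It rose from 222 ± 13.2 to 268 ± 3.30 CPM (SD, n = 3; log2 fold change 0.27, SE 0.07, adjusted p = 0.0216), and leaving out any 1 library other than OCA B or DMSO B ended the call (adjusted p from 0.0701 to 0.108). Promoter sequences, 250 bases before to 50 after the start of transcription, came from RefSeq on GRCm38.p6 and matched 6 of the 10 genes (P4ha1, P4ha2, P4ha3, Plod1, Plod3 and Serpinh1). Plod2 and Lox, named above as targets, had no promoter entry. A form of the core of the hypoxia response element, ACGTG on either strand, was present in 4 of these 6 and in 19.6% of all 32851 promoter windows. Other forms of the core were not searched or marked. It is shown upstream of the start for the pair of prolyl 4-hydroxylase subunits with intermediate to high levels, whose transcripts did not pass the test, with the motif in capitals. The P4ha1 window is chr10:59323262-59323295 with the motif on the opposite strand from position -16, and the P4ha2 window is chr11:54100828-54100868 with the motif on the gene's strand from position -78, both windows on the plus strand, 5′ to 3′.
P4ha1: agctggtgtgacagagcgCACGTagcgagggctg
P4ha2: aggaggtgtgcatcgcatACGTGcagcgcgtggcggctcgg
These are matches of letters in short windows and show nothing of binding.

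The libraries carried the markers of stellate cells, and the treatment was visible in them. All 12 stellate cell markers were tested, with a summed level of 2798 to 2996 CPM in DMSO and 2513 to 2887 CPM in OCA, and single markers moved both ways: 1 was called higher and 2 lower. Lhx2, a stellate cell transcription factor, had 130, 140 and 144 CPM in DMSO A, B and C and 170, 159 and 157 CPM in OCA A, B and C (log2 fold change 0.23, SE 0.07, adjusted p = 0.047). Reln, encoding the secreted protein reelin, had 632, 508 and 502 CPM in DMSO A, B and C and 261, 489 and 225 CPM in OCA A, B and C (-0.75 on the log2 scale, SE 0.18, adjusted p = 0.0198). Rgs5, a regulator of G protein signalling found in pericytes, went from 61.5 ± 6.27 to 45.7 ± 8.95 CPM (SD, n = 3; -0.43 on the log2 scale, SE 0.11, adjusted p = 0.0326). The part of these shifts in the fall of Plod2 was not tested. Markers of hepatocytes summed to at most 5.85 CPM in any library, those of endothelial cells to 2.76, of macrophages to 12.4, of mesothelial cells to 1.95 and of lymphocytes to 0.153. Cholangiocyte markers summed to between 8.36 and 9.54 CPM in DMSO and between 11.3 and 14.9 CPM in OCA, with Krt7 at 0 throughout and 1 of 3 tested genes called higher. That gene, Sox9, went from 2.52 to 7.69 CPM (means, n = 3, adjusted p = 0.00322 by edgeR) and carried the higher sum. Spp1 went the other way, from 5.75 to 4.18 CPM, with all OCA libraries below all DMSO libraries (adjusted p = 0.332 by edgeR). Portal fibroblast markers, 5 genes of which 1 of 3 tested was called lower, summed to between 118 and 139 CPM in DMSO and between 52.1 and 106 CPM in OCA. Nearly all of that sum was Fbln2, while Thy1 was at 0 in all libraries, and its part in the fall of Plod2 was not tested. In a bulk sample, fewer cells of a type and less RNA per cell cannot be told apart. Abcb11, the bile salt export pump and a direct FXR target, went from 0.159 ± 0.0263 CPM in DMSO to 4.89 ± 0.592 CPM in OCA (SD, n = 3, adjusted p = 1.36e-06). Column totals ranged from 12260882 to 16336240 counts per library.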

How the data were processed

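RNA sequencing of polyadenylated RNA was deposited as 1 table with 1 row per gene symbol. The submitters' processing notes list STAR, HOMER and mm10. Versions and the handling of duplicates are not stated there. The table the authors deposited is named as unadjusted exon counts. The deposited values come in steps of 0.5, whose origin is not stated, and were handled here like estimated counts. They were rounded to whole numbers (ties to even) before testing. A floor of 3 counts corresponds to 0.184 to 0.245 CPM per library, for counting error only.

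OCA was compared with DMSO in edgeR 4.0.16 (R 4.3.3): filterByExpr, TMM, glmQLFit and glmQLFTest, two-sided, Benjamini-Hochberg over 12687 genes, threshold 0.05. An SE is the log2 fold change divided by the square root of F, and 95% intervals use the fit's degrees of freedom. No 2 libraries of the same treatment agreed within sampling noise (chi-square per degree of freedom from 4.30 to 7.78). Columns were matched to samples by title.

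All 10 genes are named. From each pathway list up to 4 called genes with the smallest p are named or, where none is called, up to 2 with the highest mean CPM. Genes and lists were chosen with earlier results of these data known. Alternatives were DESeq2 1.42.0, limma-voom (limma 3.58.1), other scalings and filters, a replicate block, robust estimation, unrounded counts, a length trend removed and left-out libraries. Levels per kilobase with GENCODE M21 lengths were an alternative chosen after seeing the data.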

Additional observations from a re-analysis of the deposited data

How the results depend on the processing

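Plod2 was called lower in all 18 alternatives. Leaving out 1 library gave 0 to 1 of the 10 genes called higher (Serpinh1 without DMSO B) and 1 to 4 called lower, with 4 (Plod1, Plod2, Lox and Loxl2) without OCA B and also 4 without both OCA B and DMSO A. Lower calls rose over all genes too in those fits. They went from 384 of 12687 genes tested to 758 of 12845 without OCA B, and to 605 of 12733 without both OCA B and DMSO A. P4ha2 and Loxl1 have no direction to speak of: with 1 library left out, the log2 fold change of P4ha2 ran from -0.016 (without OCA A) to 0.097, and that of Loxl1 from -0.025 (without DMSO C) to 0.093, with -0.000593 without OCA B. Over all genes, where 276 were called higher and 384 lower, leaving out 1 library gave 161 to 363 higher and 104 to 758 lower, no filter on low counts gave 703 lower, the fit without both OCA B and DMSO A 605 lower, and the removed length trend 227 lower, which moves the share of higher calls from 41.8% to 60.6%. Among the 78 related genes, with 2 called higher and 7 lower, leaving out 1 library gave 1 to 3 higher and 0 to 18 lower. Leaving out OCA B together with DMSO A gave 1 higher and 18 lower, no filter gave 17 lower and robust estimation 3 lower. The cause of these shifts was not tested. With a replicate block on the letter 306 of all genes were called higher and 508 lower. The related genes then had 15 lower calls, and the calls among the 10 genes did not change. The labels do not say that a letter marks a shared preparation. Over all genes tested, same-lettered libraries did not deviate together (correlations of 0.000511, -0.0433 and 0.0535), so the letters are not taken as pairs. Among the 10 genes, library B was highest in 7 under OCA and in 8 under DMSO, so these correlations do not settle the pairing for them. Counting depth limits P4ha3, at 40 to 88 counts per library.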

Other observations

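Elastin, the other substrate of the lysyl oxidases, had values opposite in sign to the collagens. Eln, named after its values were seen, stood at 3.14, 2.93 and 3.51 CPM in DMSO A, B and C and at 5.63, 4.98 and 4.24 CPM in OCA A, B and C, with no overlap between the groups. Its log2 fold change of 0.63 (SE 0.27) did not pass the test (adjusted p = 0.212 by edgeR). All 8 other tested substrate genes had log2 fold changes below 0. A pair of further genes of procollagen maturation, also named after their values were seen, came close to the threshold from below 0: Colgalt1, which adds galactose to hydroxylysine, with -0.23 on the log2 scale (SE 0.07, adjusted p = 0.0534 by edgeR), and Bmp1, the C-propeptidase of procollagen that also activates lysyl oxidase, with -0.36 (SE 0.11, adjusted p = 0.0635 by edgeR).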
